A study of Homo sapiens with 14 samples.

Results

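The nucleotides described here are those of human 18S and 28S ribosomal RNA that scored near 0 with the acylating reagent NAIN3 and clearly above 0 with the reagent AcIm. They were chosen by their R-scores, the authors' reactivity score per nucleotide on a scale from 0 to 1. A nucleotide counted as closed to NAIN3 at a mean R-score of at most 0.015 and as open to AcIm at a mean R-score of at least 0.1. In 18S 141 of 1833 scored nucleotides met both limits, which is 7.69%, and in 28S 207 of 5034 did, which is 4.11%. Because the AcIm and NAIN3 scores chose these nucleotides, their levels are given as a description. The AcIN3 score is the readout that the choice did not use. Position and surroundings are described too, but the surroundings come from the same NAIN3 and AcIm profiles, and many neighbours were themselves chosen.

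Acylimidazoles modify RNA by acylating the 2′-hydroxyl of its riboses, and they react best where the nucleotide is flexible and the reagent can reach it. Reverse transcriptase can stop at the adduct, so stops mapped along the RNA read out reactivity at each nucleotide. 18S rRNA is the RNA of the small ribosomal subunit, which decodes messenger RNA, and 28S rRNA is the main RNA of the large subunit, whose peptidyl transferase centre joins amino acids. Both are folded tightly against ribosomal proteins, and vertebrate rRNAs also carry expansion segments, which are insertions into the conserved core that lie mostly at the ribosome surface.

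HEK293 cells, an embryonic kidney line that carries adenovirus 5 DNA, were treated for 10 min with 100 mM AcIm (acetylimidazole), 200 mM AcIN3, 100 mM NAIN3 (an acylimidazole of nicotinic acid that carries an azide) or 10% DMSO as solvent control. For AcIN3 the labels give a name and no structure. The labels list 14 samples in 7 groups of 2 biological replicates. Ribosomal RNA accounts for 8 of the samples (4 groups) and polyadenylated RNA for 6, and the R-scores used here are the authors' means over replicates for the 3 reagents on ribosomal RNA. The series title asks about RNA structure in crowded spaces, and nucleotides open to AcIm and closed to NAIN3 at the same dose and time bear on where the acetyl reagent scored and the nicotinyl reagent did not.

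Scores covered nt 7 to 1839 of the 1869-nt 18S profile and nt 7 to 5040 of the 5070-nt 28S profile. The 28S length matches 1 of 5 listed gene copies, RNA28SN5 (GRCh38.p14, unplaced sequence, 113348 to 118417). The 18S length is shared by all 5 listed copies, among them RNA18SN5 (unplaced sequence, 109078 to 110946). Both are annotated as rRNA genes without coding sequence. The DMSO and polyadenylated RNA groups were not analysed here. With only means, no SD, no replicate test and no depth can be given, and every comparison below sets values side by side with no p-value. The low end of the scale is coarse. The 742 nucleotides of 18S that were closed to NAIN3 held 19 different NAIN3 scores out of 31 possible steps of 0.0005, and the 1586 of 28S held 17, so the limit of 0.015 separates a few score levels and not a continuum.

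Openness to AcIm and closure to NAIN3 were each common, and their combination was not. In 18S 776 nucleotides (42.3%) were open to AcIm and 742 (40.5%) were closed to NAIN3. Among those open to AcIm, 18.2% were closed to NAIN3. In 28S 1850 nucleotides (36.8%) were open to AcIm and 1586 (31.5%) were closed to NAIN3, and the share among the AcIm-open nucleotides was 11.2%. The share was highest in the lowest bin of AcIm score and lowest in the top bin. In 18S it was 25.4% at AcIm scores from 0.1 to 0.15 (60 of 236) and 10.9% at 0.5 and over (10 of 92). In 28S it was 16.8% (100 of 594) and 3.86% (9 of 233). The reverse combination, closed to AcIm and open to NAIN3 by the same limits, held 1 nucleotide of 18S and 5 of 28S, where 139 and 608 nucleotides were closed to AcIm and 269 and 1233 were open to NAIN3.

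**Figure D1:**
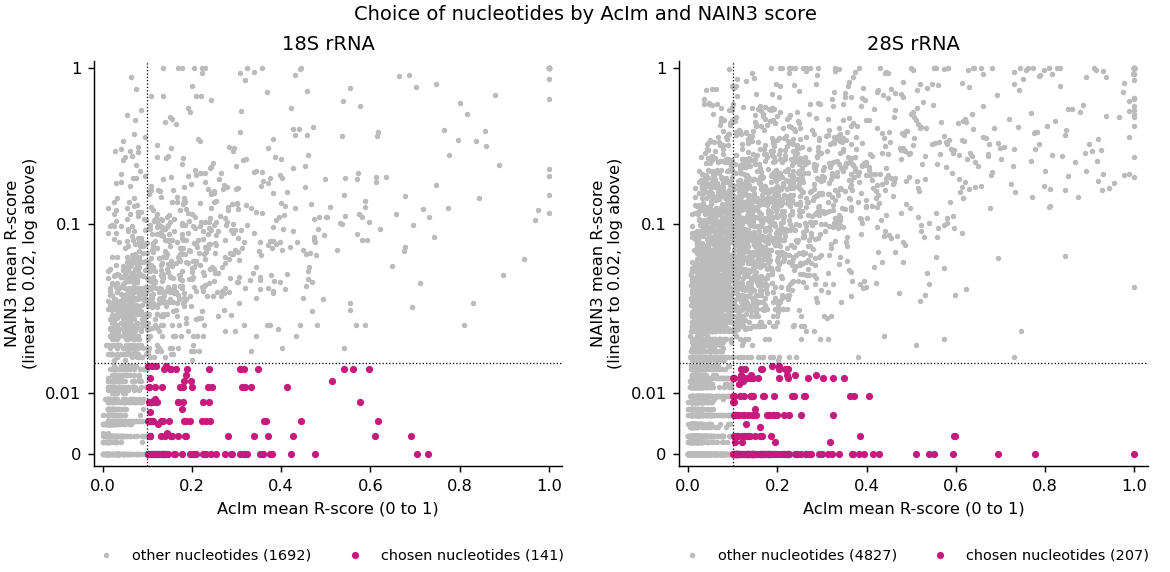
AcIm mean R-score (x axis) against NAIN3 mean R-score (y axis, linear to 0.02 and logarithmic above) for every scored nucleotide of 18S and 28S rRNA, with dotted lines at the limits of 0.1 and 0.015. The 141 chosen nucleotides of 18S and the 207 of 28S lie at the lower right, on a small number of NAIN3 score levels.

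Most of the chosen nucleotides scored low to moderate with AcIm. In 18S their AcIm scores ran from 0.1005 to 0.730 with a median of 0.170, below the median of 0.219 over the other 635 AcIm-open nucleotides. In 28S they ran from 0.1 to 1.0 with a median of 0.156, against 0.203 over the other 1643. NAIN3 was listed at exactly 0 for 49 of the 141 nucleotides of 18S (34.8%) and for 106 of the 207 of 28S (51.2%), against 21.4% and 32.3% of all NAIN3-closed nucleotides. Scores cannot fall below 0, so a mean of 0 puts both NAIN3 replicates at 0 there.

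The means also bound the replicates. A mean of 2 scores between 0 and 1 leaves no NAIN3 replicate of a chosen nucleotide above 0.03, while at least 1 AcIm replicate must reach the AcIm mean. Both AcIm replicates were forced above both NAIN3 replicates at 10 chosen nucleotides of 18S and 9 of 28S. Over all scored nucleotides this held for 2.45% in 18S and 1.09% in 28S, but only AcIm means above the middle of the scale can meet it, and the choice used the same scores, so nothing is read from the counts. For the other chosen nucleotides the means leave it unsettled whether 1 or both AcIm replicates were high.

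The strongest chosen nucleotides of 18S lay in its 5′ domain, in expansion segment 6 (ES6S) and in the head. Nt 1486, in the head stretch, scored 0.730 with AcIm, 0 with NAIN3 and 0.542 with AcIN3. Nt 812, in ES6S, scored 0.704, 0 and 0.677 with these reagents. Nt 864, also in ES6S, scored 0.691, 0.003 and 0.544. These nucleotides were high with both AcIm and AcIN3. Nt 298, in the 5′ domain, scored 0.617 with AcIm, 0.0055 with NAIN3 and 0.766 with AcIN3. Nt 168, in the same domain, had 0.611, 0.003 and the highest AcIN3 score of any chosen nucleotide, 0.965. The other 5 of the top 10 by AcIm were nt 1441, nt 146, nt 400, nt 91 and nt 348, with AcIm scores from 0.515 to 0.596 and NAIN3 scores from 0.0085 to 0.014. All 10 passed the replicate bound. The direct neighbours could be very low, as at nt 864, where both scored 0.029 with AcIm.

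In 28S nt 914, in expansion segment 7 (ES7L), combined the extremes of the scale. It scored 1.0 with AcIm and 0 with NAIN3, which fixes both replicates of each reagent, and 0.890 with AcIN3. Its direct neighbours scored 0.049 on the 5′ side and 0.016 on the 3′ side with NAIN3, beside a median of 0.033 over 28S. Nearby nt 916 scored 0.2575 with NAIN3. Nt 2204, between the domain II core and domain III, scored 0.777 with AcIm, 0 with NAIN3 and 0.600 with AcIN3. Nt 3004, in ES27L, scored 0.695, 0 and 0.434. Nt 4841, in domain VI, scored 0.598, 0.003 and 0.455. The nucleotide directly before nt 4841 scored 0.507 with NAIN3. High NAIN3 scores also lay close to nt 2204, with 1.0 at nt 2206. Nt 3648, nt 1237, nt 4202, nt 2203 and nt 552 followed with AcIm scores from 0.512 to 0.597, and nt 4464 closed the top 10 at 0.427. The first 9 of these 10 passed the replicate bound, and nt 4464 could not.

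Along 18S the chosen nucleotides were unevenly spread. The stretch names and borders used here are approximate, from general knowledge of the rRNA. The 5′ domain start (nt 7 to 410) held 54 of the 141, or 34.4% of its 157 AcIm-open nucleotides. ES6S (nt 701 to 910), a large surface insertion of the small subunit, held 35, or 32.4% of 108. Together these stretches held 89 chosen nucleotides (63.1%) on 33.5% of the scored length. The shoulder stretch (nt 411 to 700) held 20, or 15.5% of its AcIm-open nucleotides, and the head (nt 1199 to 1599) held 22, or 13.5%. They were sparse in the platform (nt 911 to 1198), the face towards the messenger RNA exit, with 6 or 4.65%. They were equally sparse in the stretch of the P site and decoding centre (nt 1600 to 1839), with 4 or 4.44%. AcIm-open nucleotides made up 44.8% of the platform and 37.5% of the decoding stretch, the lowest share of the 6 stretches, against 38.9% in the 5′ domain start, 51.4% in ES6S and 42.3% of 18S as a whole.

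The widest gap between neighbouring chosen nucleotides of 18S ran from nt 904 to nt 1123 and contained 93 nucleotides open to AcIm and 59 closed to NAIN3, none of them in common. The NAIN3 level differed between the stretches too. The median NAIN3 score over all nucleotides was 0.0135 in the 5′ domain start and 0.0175 in ES6S, against 0.0225 in the head, 0.0248 in the decoding stretch, 0.025 in the shoulder and 0.0315 in the platform. The 2 stretches with the lowest medians were those richest in chosen nucleotides. The head, decoding and shoulder stretches, at 0.0225 to 0.025, had shares of 13.5%, 4.44% and 15.5% of their AcIm-open nucleotides. With the NAIN3 limit set within each stretch at the same share of nucleotides, a setting added after the data were seen, the chosen share of AcIm-open nucleotides was 25.5% in the 5′ domain start, 20.2% in the shoulder, 27.8% in ES6S, 13.2% in the platform, 15.3% in the head and 4.44% in the decoding stretch. The part of a stretch-wide NAIN3 level in the uneven spread was not tested further.

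28S showed a flatter spread. ES7L (nt 436 to 1311), the largest of its expansion segments, held 52 of the 207 chosen nucleotides, or 16.1% of its 322 AcIm-open nucleotides, and domain VI with ES39L (nt 4577 to 5040) held 11, or 7.24% of 152. The other stretches lay between, from 8.60% in ES27L (27 of 314) to 30 of 251 in the domain II core. The stretch between ES27L and domain VI, which contains the peptidyl transferase centre (nt 3599 to 4576), held 41, or 11.8%. The stretch between the domain II core and domain III (nt 2051 to 2360) held 15, or 11.5%. The shares of 28S thus spanned 7.24% to 16.1%, a narrower range than the 4.44% to 34.4% of 18S. Under a NAIN3 limit set within each stretch, added after the data were seen, ES7L was no longer the highest. The stretch between the domain II core and domain III then had 15.38%, ES7L 13.98% and domain VI with ES39L 8.55%. Median NAIN3 scores over all nucleotides were 0.02975 in ES7L, 0.027 in the domain II core and 0.04825 between that core and domain III. The stretches of 28S were longer, at 310 to 978 scored nucleotides against 210 to 404 in 18S. The part of stretch length in the narrower range was not tested.

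**Figure D2:**
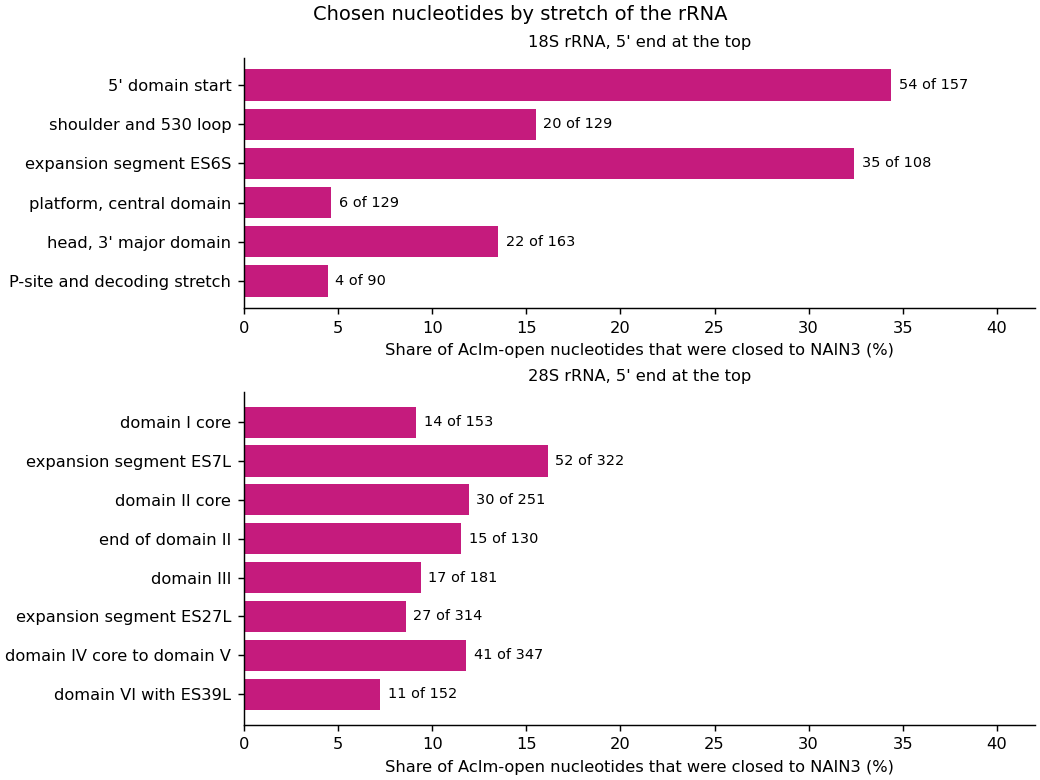
Share of AcIm-open nucleotides that were closed to NAIN3 (x axis, percent) for each stretch of 18S and 28S rRNA, from the 5′ end at the top, with the counts beside the bars. In 18S the 5′ domain start and ES6S reach 34.4% and 32.4% and the platform and decoding stretches 4.65% and 4.44%, while 28S runs from 7.24% to 16.1%.

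Many chosen nucleotides touched each other. In 18S 70 of the 141 (49.6%) were directly next to another chosen nucleotide, in 24 runs, and 71 stood alone. In 28S 66 of the 207 (31.9%) were in 26 runs and 141 stood alone. A NAIN3-closed neighbour lay beside 79.7% of the other NAIN3-closed nucleotides in 18S and 76.3% in 28S. An AcIm-open neighbour lay beside 68.7% and 67.3% of the other AcIm-open nucleotides. Both profiles set the choice, so the adjacency of chosen nucleotides is given as a description. The chosen nucleotides were denser in 18S (7.69%) than in 28S (4.11%), and the adjacent shares were not corrected for that. They also moved with the limits, to 29.1% in 18S with AcIm at least 0.2 and to 49.0% in 28S with AcIm at least 0.05, where 18S had 53.8%. With the NAIN3 profile moved 1 nt towards the 5′ end they were 29.7% and 18.8%. Runs of 3 or more numbered 12 in 18S and 8 in 28S. The longest was nt 810 to 816 in ES6S, 7 nucleotides with AcIm scores from 0.1035 to 0.704, NAIN3 scores from 0 to 0.0145 and AcIN3 scores from 0.0905 to 0.677. Its peak, nt 812, stood over neighbours of 0.318 and 0.1195 with AcIm and 0.299 and 0.201 with AcIN3, so both reagents drew the same peak. The run at nt 801 to 805, a few nucleotides before it, had AcIm scores of 0.367, 0.141, 0.141, 0.106 and 0.131.

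In the shoulder, nt 570 to 574 were all at 0 with NAIN3, with AcIm scores from 0.124 to 0.308 and AcIN3 scores from 0.132 to 0.336. In the 5′ domain, nt 148 to 151 were likewise at 0 throughout, with AcIm scores of 0.136, 0.375, 0.254 and 0.109. Nt 155 to 158 had NAIN3 scores from 0 to 0.0055 and AcIm scores of 0.105, 0.316, 0.205 and 0.143. In each of these 3 runs the AcIm scores rose to an inner maximum, while NAIN3 stayed at or below 0.0055. In 28S nt 1725 to 1729 of the domain II core had AcIm scores from 0.141 to 0.225, with NAIN3 at 0 in 4 of the 5. Nt 2744 to 2747 of domain III had AcIm scores of 0.239, 0.324, 0.192 and 0.124 and NAIN3 scores of at most 0.013. Nt 910 to 912 of ES7L had AcIm scores of 0.112, 0.171 and 0.287 and lower AcIN3 scores of 0.068, 0.1 and 0.108.

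In 2 of the longest 28S runs the AcIm and AcIN3 profiles parted. At nt 2200 to 2204 NAIN3 was at 0 throughout and AcIm scored 0.167, 0.162, 0.170, 0.541 and 0.777, whereas AcIN3 scored 0.0295, 0.465, 0, 0 and 0.600. The AcIm scores climbed towards the 3′ end of the run and the AcIN3 scores jumped between 0 and 0.600. Nt 2206, just beyond the run, scored 1 with all 3 reagents. At nt 3443 to 3446 of ES27L AcIm scored 0.101, 0.264, 0.325 and 0.415, and AcIN3 scored 0.022, 0.315, 0.122 and 0.731.

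Joining chosen nucleotides up to 10 nt apart, a distance chosen with the values known, gave larger groups. The largest in 18S was nt 140 to 174, with 18 chosen nucleotides of 35. Its median NAIN3 score was 0.003, yet it also held nt 142 at 0.661 with NAIN3, so the reagent scored high between closed nucleotides. The next, nt 801 to 825 in ES6S, held 16 of 25 and had no NAIN3 score above 0.073. In 28S the largest groups were nt 2200 to 2221, with 9 of 22, and nt 4052 to 4073 between ES27L and domain VI, with 8 of 22. The latter had a median NAIN3 score of 0 and a median AcIN3 score of 0.177.

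**Figure D3:**
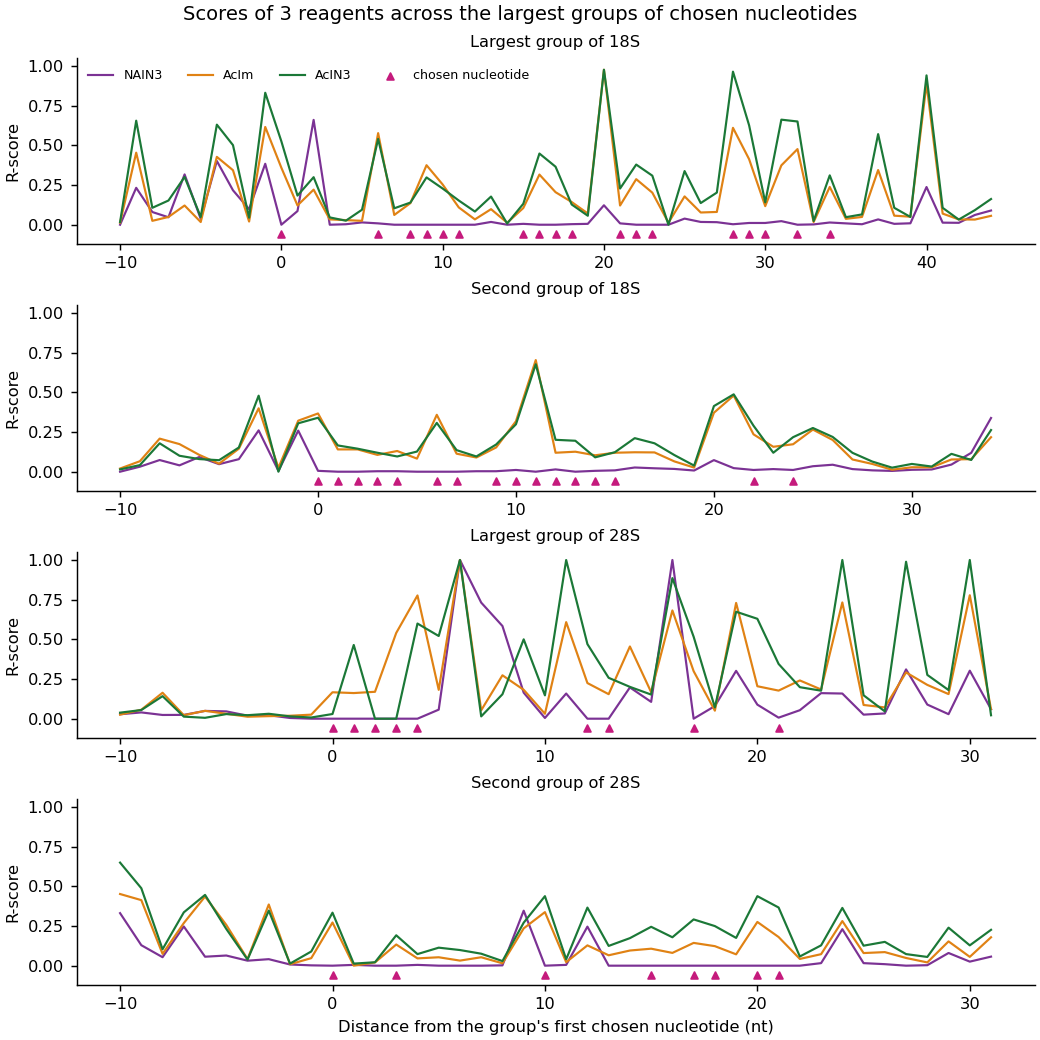
R-scores of NAIN3, AcIm and AcIN3 (y axis, 0 to 1) by distance in nt from the first chosen nucleotide (x axis) across the 2 largest groups of each rRNA, for 18S starting at nt 140 and nt 801, for 28S at nt 2200 and nt 4052. Triangles mark chosen nucleotides. In the second group of 18S the AcIm and AcIN3 lines peak at 0.704 and 0.677 on the same nucleotide, while NAIN3 stays at or below 0.073 across the group.

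Closure to NAIN3 extended beyond the chosen nucleotides. In 18S 84 of the 141 (59.6%) had a NAIN3-closed nucleotide on both sides, against 32.9% of the 601 other NAIN3-closed nucleotides and 12.9% of the 635 other AcIm-open ones. In 28S 101 of the 207 (48.8%) did, against 35.0% and 4.32%. The median length of the unbroken NAIN3-closed stretch around a chosen nucleotide was 6 nt in 18S and 5 nt in 28S, and 3 nt around other NAIN3-closed nucleotides in both. By these counts chosen nucleotides lay inside closed stretches more often than other closed nucleotides did. Neighbours that were themselves chosen were kept in the counts, and the same NAIN3 profile set the choice. The excess is therefore given as a description and not read as a result. The other AcIm-open nucleotides lie above the NAIN3 limit by definition. Chosen nucleotides that formed a closed stretch of 1 nt numbered 12 (8.51%) in 18S and 22 (10.6%) in 28S, nt 914 of 28S among them. Of the other NAIN3-closed nucleotides 20.3% in 18S and 23.7% in 28S formed such a stretch.

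Median NAIN3 scores around the chosen nucleotides climbed back slowly. In 18S the median was 0.005 at 1 nt on the 5′ side and 0.0035 at 1 nt on the 3′ side, 0.011 and 0.009 at 5 nt, and 0.0195 and 0.011 at 10 nt, against 0.0225 over all nucleotides. In 28S it was 0.0065 and 0.005 at 1 nt, 0.025 and 0.0185 at 5 nt, and 0.024 and 0.0255 at 10 nt, against 0.033 over all. The AcIm medians fell from the chosen nucleotide to its neighbours within 1 nt. The choice asked for a high AcIm score at the nucleotide itself, so this fall is not read as a result. Around the other AcIm-open nucleotides the median fell from 0.219 to 0.0895 and 0.087 in 18S. In 28S it fell from 0.2025 to 0.0875 and 0.0885 there. The AcIm median was 0.105 and 0.109 at 1 nt in 18S, above the 0.077 over all nucleotides, and 0.074 and 0.0635 in 28S, near the 0.0655 over all. In 18S 69 of the 141 (48.9%) were local AcIm peaks, higher than both neighbours, against 62.2% of the other AcIm-open nucleotides, and in 28S 129 of the 207 (62.3%) were, against 62.3%. Over all scored nucleotides the shares were 31.7% and 32.1%.

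The chosen nucleotides were not far from NAIN3 signal in every case. A NAIN3 score of at least 0.1 lay within 5 nt of 68 (48.2%) in 18S and of 145 (70.0%) in 28S, compared with 70.4% and 89.5% of the other AcIm-open nucleotides, 55.4% and 67.2% of the other NAIN3-closed ones and 64.1% and 82.1% of all. Within 1 nt these counts were 14 (9.93%) and 28 (13.5%), compared with 31.2% and 55.4% of the other AcIm-open, 12.3% and 14.1% of the other NAIN3-closed and 24.5% and 39.6% of all nucleotides. These groups were set apart by NAIN3 itself, so the lower shares near the chosen than near the other AcIm-open nucleotides are not read as a result. A score of 1 in any reagent lay within 1 nt of 1 chosen nucleotide of 18S (0.709%) and 8 of 28S (3.86%), against 2.56% and 2.80% of all scored nucleotides. Closed stretches of at least 10 nt held 48 of the 141 (34.0%) in 18S and 38 of the 207 (18.4%) in 28S, against 16.0% and 15.2% of the other NAIN3-closed nucleotides. They held unequal numbers. The 26-nt stretch of 18S at nt 105 to 130 held 2, nt 108 and nt 110, and a median AcIm score of 0.0353. In contrast, the 16-nt stretch at nt 801 to 816 held 14, with a median AcIm score of 0.128.

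**Figure D4:**
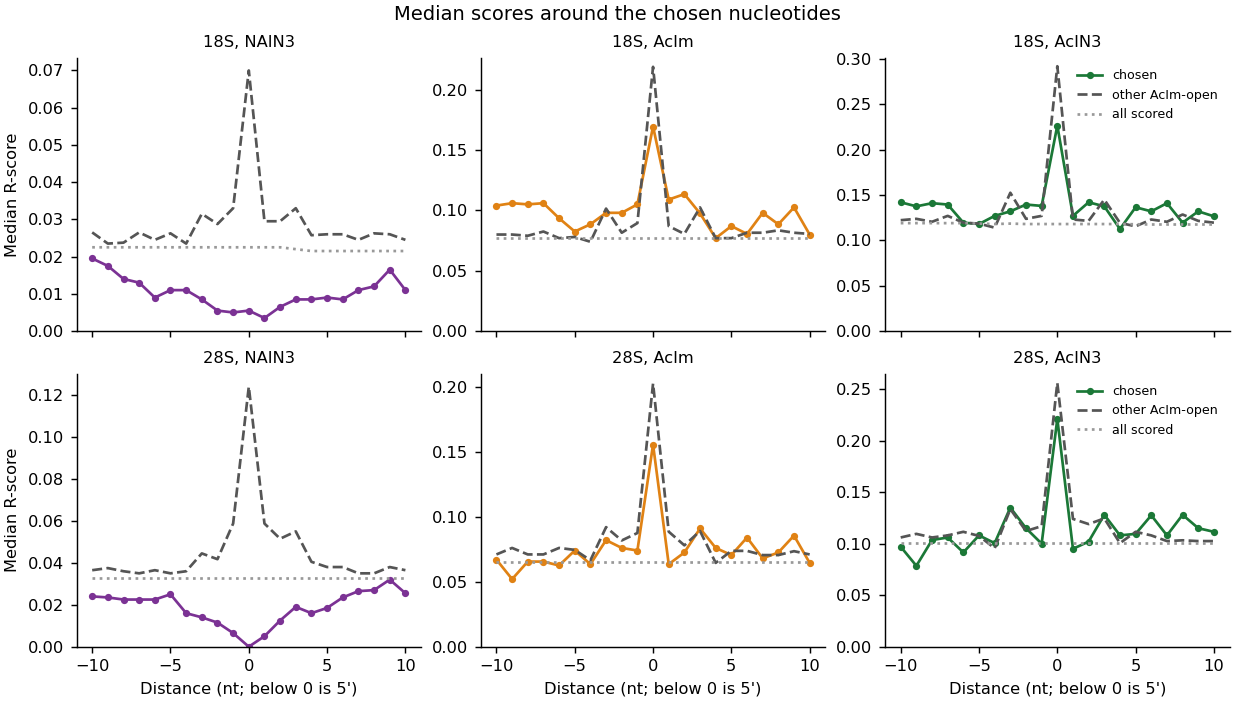
Median R-score of NAIN3, AcIm and AcIN3 (y axis) at each distance from 10 nt on the 5′ side to 10 nt on the 3′ side (x axis), around chosen nucleotides (coloured), other AcIm-open nucleotides (dashed) and all scored nucleotides (dotted), for 18S and 28S. NAIN3 medians dip over several nt around the chosen nucleotides, from 0.0195 at 10 nt on the 5′ side to 0.0035 at 1 nt on the 3′ side in 18S, while AcIm and AcIN3 peak on the nucleotide itself. The NAIN3 and AcIm levels at the nucleotide itself were set by the choice.

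AcIN3, which the choice did not use, was also above 0.1 at nearly all of the chosen nucleotides. In 18S 132 of 141 (93.6%) had an AcIN3 score of at least 0.1, against 55.8% of all scored nucleotides and 98.1% of the other AcIm-open ones. In 28S 188 of 207 (90.8%) did, against 50.2% and 94.6%. The median AcIN3 score was 0.227 in 18S and 0.221 in 28S, while the other nucleotides closed to NAIN3 had medians of 0.040 and 0.0405. The AcIN3 profile thus followed the AcIm side of the choice. AcIN3 was used at a higher dose than the other reagents, so its score level cannot be set against theirs as matched. It exceeded the AcIm score at 104 of 141 (73.8%) in 18S and 152 of 207 (73.4%) in 28S, with a median ratio of 1.21 and 1.28, against 1.24 and 1.19 over the other AcIm-open nucleotides. AcIN3 exceeded AcIm at 75.5% and 76.7% of all scored nucleotides, so the counts at the chosen ones were near the background.

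Within bins of AcIm score, AcIN3 at the chosen nucleotides differed little from AcIN3 at the other AcIm-open nucleotides. In 18S its median was lower in all 5 bins, with differences from -0.0325 to -0.00925 below an AcIm score of 0.5. The medians were 0.146 and 0.178 at AcIm scores of 0.1 to 0.15, and 0.290 and 0.299 at 0.2 to 0.3. In 28S it was higher in 3 bins and lower in 2, with 0.163 and 0.172 at 0.1 to 0.15 and 0.245 and 0.220 at 0.15 to 0.2. The gap was widest at AcIm scores of 0.5 and over, at 0.579 and 0.719 in 18S and 0.542 and 0.680 in 28S. In that bin the AcIm medians were lower too, 0.603 against 0.690 and 0.597 against 0.694. The lower bins did not match AcIm exactly either. In 18S the AcIm medians were 0.115 against 0.1215 at 0.1 to 0.15 and 0.177 against 0.174 at 0.15 to 0.2. They were 0.2355 against 0.2395 at 0.2 to 0.3 and 0.356 against 0.382 at 0.3 to 0.5. Weighted by the number of chosen nucleotides per bin, AcIN3 differed by -0.0316 in 18S and -0.00276 in 28S, and the 28S value changed sign under other limits (0.0114 with limits by rank). Without replicate values it cannot be said whether these differences exceed the error.

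**Figure D5:**
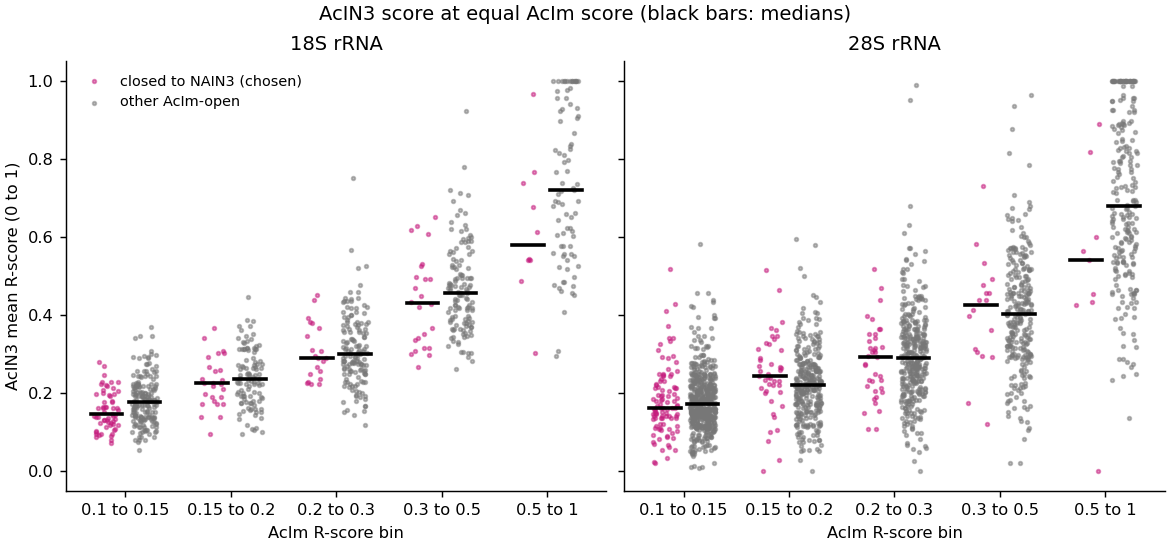
AcIN3 mean R-score (y axis, 0 to 1) of AcIm-open nucleotides by bin of AcIm score (x axis), for those closed to NAIN3 (magenta) and the others (grey), with medians as black bars. The medians lie close together in the lower 4 bins and further apart at 0.5 to 1, where they are 0.579 and 0.719 in 18S and 0.542 and 0.680 in 28S.

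The few chosen nucleotides with AcIN3 below 0.1 were mostly close to the AcIm limit. In 18S there were 9, led downwards by nt 322 (AcIN3 0.071, AcIm 0.110) and nt 316 (0.0795 and 0.111), and nt 1614, nt 815 and nt 758 had AcIN3 scores from 0.087 to 0.0915. None of the 9 exceeded 0.152 with AcIm. In 28S there were 19, and 2 of them, nt 2202 and nt 2203, were listed at 0 with AcIN3. Apart from nt 2203, at 0.541, none of the 19 exceeded 0.191 with AcIm. At nt 2203 the AcIm replicates were both above the AcIN3 replicates by the bound. It was the only chosen nucleotide of either rRNA of which that held. At the low end nt 3443, nt 3434 and nt 2200 followed with AcIN3 scores of 0.022, 0.024 and 0.0295. At the high end nt 400 and nt 172 of 18S reached 0.739 and 0.651, and nt 552, nt 3446 and nt 544 of 28S reached 0.816, 0.731 and 0.581.

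With AcIN3 in place of AcIm, the same limits chose 220 nucleotides of 18S and 387 of 28S. The shared nucleotides made up 60.0% of the AcIN3-based set and 93.6% of the AcIm-based set in 18S, and 48.6% and 90.8% in 28S. The 88 and 199 nucleotides chosen with AcIN3 alone had median AcIm scores of 0.0713 and 0.0655.

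Ribose methylation places a methyl group on the 2′-hydroxyl that these reagents acylate. Of 40 ribose-methylated positions of 18S listed from general knowledge, 4 were chosen nucleotides and 12 (30.0%) were other AcIm-open nucleotides. Over all 1833 scored nucleotides of 18S, 635 were other AcIm-open ones, so the count of 12 is not read as a result. The 4 were Um172, Cm174, Am668 and Um1442, with AcIm scores of 0.477, 0.238, 0.309 and 0.180, NAIN3 scores from 0 to 0.014 and AcIN3 scores from 0.303 to 0.651. Within 1 nt of a listed position lay 7 of the 141 chosen nucleotides (4.96%), 6.14% of the other AcIm-open nucleotides and 6.38% of all scored nucleotides. The 4 positions were 10.0% of those listed, beside 7.69% of all scored nucleotides that were chosen, and a count of 4 is too small to read a direction from. The rRNA sequence was not analysed here, so the listed positions were not matched to bases, and bases and motifs around the chosen nucleotides are not given.

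The limits cut through a crowded range. In 18S 37 chosen nucleotides had AcIm scores under 0.12, and 40 NAIN3-closed nucleotides fell just outside at 0.08 or more. In 28S these were 44 and 67. Just inside the AcIm limit lay nt 296, nt 1683 and nt 882 of 18S at 0.1005 to 0.1015, and just outside lay nt 633, nt 1800 and nt 377 at 0.0985 to 0.099. In 28S nt 124, nt 141 and nt 2583 lay just inside at 0.1 to 0.101, and nt 3611, nt 466 and nt 2632 just outside at 0.0975 to 0.099. At the NAIN3 limit nt 316, nt 639 and nt 813 of 18S lay just inside at 0.0145, and nt 363, nt 258 and nt 1017 just outside at 0.0155 to 0.016. In 28S nt 4210, nt 4775 and nt 179 lay just inside at 0.014 to 0.0145, and nt 567, nt 65 and nt 324 just outside at 0.0155 to 0.016. AcIN3 scores on both sides of each limit overlapped, as at nt 633 (0.167) outside and nt 1683 (0.162) inside.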

How the data were processed

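The deposited values are scores, the authors' mean R-score per nucleotide between 0 and 1, for NAIN3, AcIm and AcIN3 on 18S and 28S rRNA. Each reagent column is named as a mean over replicates by its file, and every score fell on a step of 0.0005. Bowtie2 and the build GRCh38 were used, per the submitters' processing notes. How the R-score was computed from stops, how DMSO entered it and how deep the libraries were is not given in the labels. A score of 0 may therefore be a low or a poorly covered signal, and averaging hides the spread between replicates.

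The members and lists were chosen with earlier results of these data known. Nucleotides with a value for all 3 reagents were kept. The rule was NAIN3 at most 0.015 and AcIm at least 0.1, each rRNA apart. Positions, runs of adjacent members, neighbours up to 10 nt away and AcIN3 scores within AcIm bins (limits 0.1, 0.15, 0.2, 0.3, 0.5 and 1) were counted. Nucleotides are not replicates, so no p-value was computed. Nucleotides named in the text were the 10 highest by AcIm, the 5 longest runs, the 5 highest and 5 lowest by AcIN3, listed methylated sites and the 3 on each side of each limit. A few more nucleotides were chosen after their values were seen. They were nt 108, nt 110 and nt 142 of 18S, nt 916 and nt 2206 of 28S and direct neighbours of members. The joining distance of 10 nt, the joint share of 2 stretches and the NAIN3 limit per stretch were also chosen then. The counting procedures were tested on simulated profiles. Tables were made in Python 3.11.15 (pandas 2.3.3, numpy 2.4.6, scipy 1.17.1) and plots with matplotlib 3.10.9.

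Alternatives were other limits, limits by rank, profiles moved by 1 nt, a wider joining of runs, and leaving out the ends or the surroundings of scores of 1.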

Additional observations from a re-analysis of the deposited data

How the results depend on the processing

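Of 104 recomputed values 67 moved by less than their counting interval (or, for counts, by less than 1.5 times) and 37 moved further. The intervals count nucleotides as independent, which adjacent nucleotides are not. The 67 and 37 therefore sort the values and do not measure how stable they are. With NAIN3 at exactly 0, 49 nucleotides of 18S and 106 of 28S remained, and in 18S the share with AcIN3 of at least 0.1 was 98.0% and the share in the first 20% of the length was 46.9%. With NAIN3 at most 0.03 there were 245 and 344, with 26.5% of the 18S nucleotides in that first 20% and 48.2% in the 5′ domain start and ES6S. With AcIm at least 0.05 there were 273 and 471, of which 76.6% and 69.4% had AcIN3 of at least 0.1. There 51.6% of the 18S nucleotides lay in the 5′ domain start and ES6S, and 49.0% of the 28S nucleotides were adjacent to another. With AcIm at least 0.2 there were 55 and 64, with AcIN3 shares of 100% and 98.4% and adjacent shares of 29.1% and 25%. Rank limits left 63 in 18S, with an AcIN3 share of 100%, and 147 in 28S. With the NAIN3 profile moved 1 nt towards the 5′ end the counts were 306 and 437, the AcIN3 shares 97.1% and 94.5%, the adjacent shares 29.7% and 18.8%, and in 18S the share in the first 20% of the length 22.2% and in the 5′ domain start and ES6S 41.5%. Moved towards the 3′ end, the counts were 274 and 416, the adjacent shares 33.9% and 21.6%, and the 18S shares 26.3% and 44.9%. With the NAIN3 limit set within each stretch, added after the data were seen, the 5′ domain start and ES6S held 49.3% of the 18S nucleotides. The cause of these shifts was not tested. The AcIN3 difference within AcIm bins ran from -0.0406 to -0.0035 in 18S and from -0.0113 to 0.0176 in 28S. In 28S it changed sign from -0.0028 to 0.0084 with NAIN3 at 0, 0.0114 with rank limits and 0.0176 with NAIN3 moved towards the 5′ end, so it has no settled direction. No paired analysis was possible because the files hold means over replicates. Depth is unknown, so no score has a limit from counting.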

Other observations

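Spacing was described for pairs of nucleotides 1 to 12 nt apart. Chosen nucleotides were paired most often at 1 and 2 nt, with 46 and 48 pairs in 18S and 40 and 38 pairs in 28S, and less often at 4 nt, with 27 and 19 pairs. AcIm-open nucleotides as a whole had their highest count at 3 nt in both rRNAs. In 18S there were 395 pairs at 3 nt, between 355 at 2 nt and 329 at 4 nt, and in 28S there were 875, between 794 and 687. NAIN3-closed nucleotides showed no such rise, with 397, 393 and 356 pairs at 2, 3 and 4 nt in 18S and 757, 737 and 659 in 28S. The median AcIm and AcIN3 scores around the chosen nucleotides of 28S were likewise higher at 3 nt than at 4 nt, at 0.082 and 0.135 on the 5′ side and 0.091 and 0.128 on the 3′ side.

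The low ends of the 3 profiles were graded differently. Scores of at most 0.015 took 19 values for NAIN3 in 18S but 5 for AcIm and 4 for AcIN3, and 102 of the 139 nucleotides of 18S that were closed to AcIm shared the score 0.0125. In 28S they took 17, 8 and 6 values, and 234 of 608 shared the AcIm score 0.009. What set these levels was not tested.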
